A study of Homo sapiens with 6 samples.

Results

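The genes described are 10 members of the human protein kinase C and D families, taken by symbol: PRKCA, PRKCB, PRKCD, PRKCE, PRKCH, PRKCQ, PRKCI, PRKCZ, PRKD2 and PRKD3. Each was measured by 1 probe set, a group of array probes read together, so the 10 genes are 10 of the 19460 probe sets annotated to a single gene symbol and 10 of 18417 genes. The samples were RL cells, an established human B-cell lymphoma line carrying the t(14;18) translocation, on Affymetrix Gene 1.0 ST arrays. The groups were RL cells given LY317615 for 48 h (3 arrays) and untreated RL cells (3 arrays, also titled 48 h). LY317615 is enzastaurin, an ATP-competitive inhibitor aimed at the beta isoform of protein kinase C, the product of PRKCB. The labels give its dose as 2.5 mM, a unit that could not be checked here, and name no vehicle for the untreated cells. RL is a single line, and the labels do not say whether the replicates were separate cultures, so p-values cover only array-to-array spread, part of which may be technical.

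Protein kinase C enzymes are serine and threonine kinases that carry signals from membrane receptors. Conventional isoforms (alpha, beta) need calcium and the lipid diacylglycerol. Another class (delta, epsilon, eta, theta), here called diacylglycerol-only isoforms, needs diacylglycerol without calcium. Atypical isoforms (iota, zeta) need neither and act through protein partners. Protein kinase D enzymes also bind diacylglycerol, and protein kinase C isoforms phosphorylate and activate them. In B cells the B-cell receptor makes diacylglycerol through phospholipase C, and protein kinase C beta links it to NF-kB. The arrays measure RNA of these genes, not kinase activity, so the comparison asks whether RNA of the compound's own target family differed after treatment.

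Median intensity over all 33297 probe sets was 60.01 to 61.45 in LY317615 arrays and 56.8 to 58.2 in untreated arrays. In the fit over all 19460 probe sets (limma, two-sided, Benjamini-Hochberg adjusted p under 0.05), 35.5% passed, with 14.3% higher and 21.2% lower in LY317615 cells. Changes leaned with intensity: the median log2 fold change ran through 0.06, 0.15, 0.11, -0.14 and -0.21 over 5 equal bins of probe sets from dimmest to brightest. LY317615 replicate 3 stood apart, with the lowest quality weight (0.379, against 1.04 to 1.504 in the other arrays). That array had the lowest value of the LY317615 arrays for 6 of the 10 kinase genes. Among the untreated arrays, replicate 2 was the lowest for 5 of the 10 and replicate 3 for 4. Of 5 B-cell markers measured, 4 fell (CD22, MS4A1, PAX5 and, except after cyclic loess and without untreated replicate 3, CD79A), and the sum of the 5 was 12.70 to 12.84 in LY317615 arrays and 13.23 to 13.30 in untreated arrays on the log2 scale. In untreated cells all 5 lay at or above the 95.1st percentile of log2 intensity. Of 6 T-cell markers, which lay between the 5.48th and 28.3rd percentiles in untreated cells, CD3E and CD28 rose. Neither call held after cyclic loess, over all probe sets of the table, or without replicate 3 of either group. The CD3E call was also lost without untreated replicate 1 (adjusted p = 0.0778 in limma). That of CD28 was also lost without LY317615 replicate 1 (0.0505) or 2 (0.0573) or untreated replicate 2 (0.0889). The sum of the 6 T-cell markers was 7.22 to 7.40 in LY317615 arrays and 7.01 to 7.04 in untreated arrays. Of 6 myeloid markers 3 rose (1 with equal array medians, after cyclic loess, and without LY317615 replicate 1 or 3 or untreated replicate 2, where the CSF1R and MPO calls were lost), with a sum of 7.31 to 7.66 in LY317615 arrays and 7.04 to 7.16 in untreated arrays. Of 6 stromal and epithelial markers, 2 rose and 1 fell (1 rise with equal array medians, after cyclic loess, and without any 1 of the arrays except LY317615 replicate 1, where the COL1A2 call was lost; the fall of KRT18 was -0.05, adjusted p = 0.738, as the mean of its probe sets), with a sum of 8.95 to 9.03 in LY317615 arrays and 8.63 to 8.74 in untreated arrays. That last sum includes PECAM1, which rose most of the 6, from a mean of 6.60 in untreated arrays to 7.72 in LY317615 arrays. This was a change of 1.12 ± 0.09 on its brighter probe set (SE, adjusted p = 7.95e-05 in limma). As the mean of its 2 probe sets, the PECAM1 change was 0.54. PECAM1 was the brightest of the 6 in LY317615 arrays, and the sum without it was not computed. No marker was at 0, no detection calls were used, and the part of these shifts in the kinase values was not tested. RL is a single line, so the markers are read as RNA levels and not as shares of cell types. Fewer cells expressing a marker and less RNA per cell cannot be told apart in such bulk samples. The B-cell markers lie in the brightest of the 5 bins, where 46.7% of probe sets fell. The T-cell and myeloid markers lie in the dimmest bin and the next, where 6.68% and 17.8% rose.

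After LY317615, RNA of 4 diacylglycerol-dependent isoforms fell: PRKCH fell by 1.12 on the log2 scale, PRKCA fell by 0.73, PRKCD fell by 0.66, and PRKCE fell by 0.44. PRKCZ, an atypical isoform, rose by 0.27. PRKCB, the gene of the compound's main target, changed by -0.001 on a dim probe set, at the 28.5th percentile of untreated intensity. Whether that probe set was above background is not known. PRKCQ, PRKCI, PRKD2 and PRKD3 did not pass the test. Thus 5 of 10 genes were called, against 35.5% of all probe sets. At an unadjusted p under 0.05 there were 7, with PRKCI lower and PRKD2 higher as well, against 46.3% of all probe sets. The groups of arrays did not overlap for 8 of the 10, against 49.6% of all probe sets: 5 genes lay lower throughout (27.5% of all probe sets) and 3 higher (22.1%). By class, 3 of 4 diacylglycerol-only, 1 of 2 conventional, 0 of 2 atypical and 0 of 2 protein kinase D genes fell. Of all probe sets, 21.2% fell. By intensity bin, 2.36% fell in the bin of PRKCQ and 4.75% in that of PRKCB. In the bin of PRKCH, PRKCA, PRKCZ and PRKD3, 15.5% fell. The share was 36.5% in the bin of PRKCD and PRKD2 and 46.7% in that of PRKCE and PRKCI. The median log2 fold change of the 10 genes was -0.16, against 0.02 over all probe sets.

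**Figure D1:**
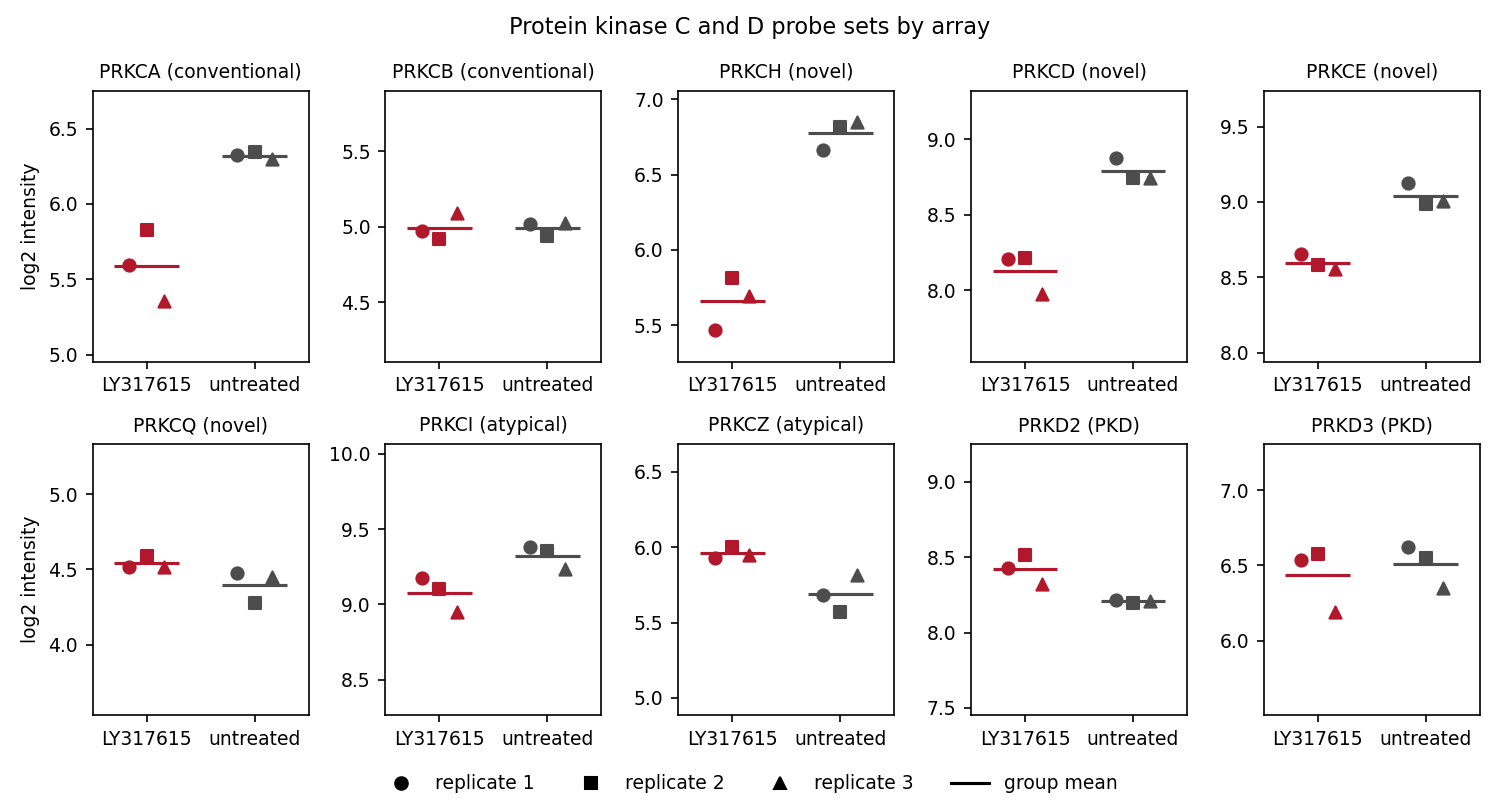
Log2 intensity of each protein kinase C and D probe set on every array, with LY317615 arrays (red) left of untreated arrays (grey), symbols for replicate numbers and lines at group means; every panel spans the same height. PRKCH, PRKCA, PRKCD and PRKCE lie clearly lower in all 3 LY317615 arrays, while the PRKCB values of the groups overlap.

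The promoters of the 4 genes that fell and of PRKCB are printed to show the DNA before a listed start of each gene. Which starts RL cells use was not measured. Each is the 250 bases before a RefSeq start on GRCh38.p14, 5′ to 3′. Capitals mark matches, on either strand, to motifs named after the sequences. For PRKCD the most upstream of 3 listed starts is shown; the starts listed for PRKCH and PRKCE lie inside the RefSeq genes, downstream of their first bases.
PRKCH (chr14:61321329-61321578, plus strand): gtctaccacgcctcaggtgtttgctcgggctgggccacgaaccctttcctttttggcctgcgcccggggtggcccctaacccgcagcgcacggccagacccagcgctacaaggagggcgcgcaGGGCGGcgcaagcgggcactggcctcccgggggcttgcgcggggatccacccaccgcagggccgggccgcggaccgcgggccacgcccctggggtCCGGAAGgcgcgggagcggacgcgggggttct
PRKCA (chr17:66302363-66302612, plus strand): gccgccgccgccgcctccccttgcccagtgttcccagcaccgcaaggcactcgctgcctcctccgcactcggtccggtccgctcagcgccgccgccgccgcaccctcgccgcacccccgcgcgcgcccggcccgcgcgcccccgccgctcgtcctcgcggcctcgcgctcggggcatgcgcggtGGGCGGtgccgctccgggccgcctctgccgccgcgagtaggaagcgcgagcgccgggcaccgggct
PRKCD (chr3:53160959-53161208, plus strand): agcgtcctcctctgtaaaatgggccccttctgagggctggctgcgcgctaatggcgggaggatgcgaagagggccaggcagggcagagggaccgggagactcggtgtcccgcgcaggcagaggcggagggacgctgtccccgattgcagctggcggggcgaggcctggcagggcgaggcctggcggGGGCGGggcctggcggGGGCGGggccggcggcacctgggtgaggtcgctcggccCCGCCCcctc
PRKCE (chr2:45651425-45651674, plus strand): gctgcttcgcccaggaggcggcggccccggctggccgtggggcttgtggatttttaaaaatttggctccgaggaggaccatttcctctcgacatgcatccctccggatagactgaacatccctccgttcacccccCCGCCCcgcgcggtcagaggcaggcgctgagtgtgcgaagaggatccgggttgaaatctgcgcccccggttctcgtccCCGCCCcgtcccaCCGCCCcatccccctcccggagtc
PRKCB (chr16:23835733-23835982, plus strand): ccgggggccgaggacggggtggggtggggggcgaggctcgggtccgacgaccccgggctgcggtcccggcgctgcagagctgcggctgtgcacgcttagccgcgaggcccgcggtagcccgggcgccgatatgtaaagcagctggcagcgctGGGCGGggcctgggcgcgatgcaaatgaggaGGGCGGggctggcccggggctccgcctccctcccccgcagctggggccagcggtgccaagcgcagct
The motifs searched were the phorbol ester (TPA) response element TGAGTCA, which AP-1 binds downstream of protein kinase C, the E-box CACGTG, the cAMP response element TGACGTCA, the GC box GGGCGG, the ETS core CCGGAAG and the FOXO element GTAAACA. No matches to different motifs overlapped in these windows. All 10 genes had a listed start, 16 windows in all. The GC box stood in 13 of the 16 windows, from 9 of the 10 genes, against 42.6% of 35116 RefSeq windows of the same length. It was present in all 5 sequences printed, in PRKCB and in the genes that fell alike. The ETS core was found in PRKCH, 32 bases before the start, and in 8.52% of all windows. The TPA response element and the E-box were in 0 of the 16 windows, and in 4.2% and 6.34% of all windows. The cAMP response element was in 1 window, of PRKCZ (1.65% of all windows), and the FOXO element in 1, of PRKCQ (2.98% of all windows). These matches are descriptions of letters and not of bound sites.

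Among the conventional isoforms, PRKCA fell, and PRKCB, read on a dim probe set, did not pass the test. PRKCA (probe set 8009301) encodes protein kinase C alpha, which is made in most tissues. Its log2 intensity was 5.59, 5.82 and 5.36 in LY317615 replicates 1 to 3, against 6.32, 6.35 and 6.29 in untreated replicates 1 to 3. All LY317615 arrays lay below all untreated arrays, and the LY317615 arrays were also the more spread, with an SD of 0.23, against 0.03 in untreated arrays (n = 3 each). Its change was -0.73 ± 0.11 on the log2 scale (SE, adjusted p = 0.00154 in limma). Without LY317615 replicate 3 the change was -0.61 (adjusted p = 0.00292).

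PRKCB (probe set 7994131) had log2 intensities of 4.97, 4.91 and 5.09 in LY317615 cells, against 5.02, 4.94 and 5.02 in untreated cells. The groups overlapped and their means were both 4.99. The fitted change was -0.001 ± 0.078 (SE, adjusted p = 0.992 in limma), with a 95% confidence interval of -0.18 to 0.18. This probe set was dim, at the 28.5th percentile of untreated intensity, and whether it was above background is not known. Cyclic loess takes out trends with intensity, and after it the change was -0.13 (adjusted p = 0.133), a size inside that interval.

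The diacylglycerol-only isoforms held the family's largest change. PRKCH (probe set 7974835) encodes protein kinase C eta. Its log2 intensity was 5.47, 5.82 and 5.70 in LY317615 cells, against 6.66, 6.82 and 6.85 in untreated cells. The gap between the groups at their closest was 0.85, above the SDs of 0.18 in LY317615 cells and 0.10 in untreated cells (n = 3 each). On the log2 scale it changed by -1.12 ± 0.10 (SE, adjusted p = 0.000146 in limma), a 2.17-fold lower intensity. In size it stood at the 99.1st percentile of all probe sets.

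PRKCD (probe set 8080487) encodes protein kinase C delta, which in mice restrains B-cell expansion. It read 8.21, 8.21 and 7.97 in LY317615 cells, against 8.88, 8.74 and 8.74 in untreated cells. The groups did not overlap, and LY317615 replicate 3 was the lowest. PRKCD changed by -0.66 ± 0.09 (SE, adjusted p = 0.000871 in limma), and -0.58 (adjusted p = 0.00211) without LY317615 replicate 3.

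PRKCE (probe set 8041763), the gene of protein kinase C epsilon, read 8.65, 8.58 and 8.56 in LY317615 cells, against 9.12, 8.99 and 9.01 in untreated cells. The arrays spanned 0.10 in LY317615 cells and 0.13 in untreated cells, and the groups did not overlap, with a gap of 0.33. PRKCE changed by -0.44 ± 0.08 (SE, adjusted p = 0.00252 in limma). It lies in the brightest of the 5 bins, whose median was -0.21, and after cyclic loess it was -0.24 (adjusted p = 0.0304).

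PRKCQ (probe set 7931930) encodes protein kinase C theta, the isoform of the T-cell receptor synapse. This probe set was dim, at the 18.6th percentile of untreated intensity. It read 4.52, 4.59 and 4.52 in LY317615 cells, against 4.48, 4.27 and 4.45 in untreated cells. The groups did not overlap, but the log2 fold change of 0.14 ± 0.08 (SE) did not pass (adjusted p = 0.201 in limma) and was 0.04 after cyclic loess.

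The atypical isoforms had changes of opposite sign, both small. PRKCZ (probe set 7897044), the gene of protein kinase C zeta, read 5.93, 6.003 and 5.95 in LY317615 cells, against 5.69, 5.57 and 5.82 in untreated cells. All LY317615 arrays were higher, the closest values being LY317615 replicate 1 and untreated replicate 3. The log2 fold change was 0.27 ± 0.08 (SE, adjusted p = 0.0364 in limma). The call was lost with the replicate number as a block (adjusted p = 0.0536), after cyclic loess (0.244) when array medians were set equal (0.104), with an intensity trend in the variance (0.0606) and over all probe sets of the table (0.063). It was also lost without any 1 of LY317615 replicates 1 to 3 (0.0639, 0.0886 and 0.0602) and without untreated replicate 1 (0.0877) or 2 (0.139).

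PRKCI (probe set 8083854) encodes protein kinase C iota, a partner of the polarity proteins PAR3 and PAR6. It read 9.17, 9.10 and 8.95 in LY317615 cells, against 9.38, 9.36 and 9.23 in untreated cells. The groups did not overlap, by a margin of 0.06. The log2 fold change was -0.25 ± 0.09 (SE) and missed the threshold (adjusted p = 0.0521 in limma). It passed with the array medians set equal (-0.31, adjusted p = 0.0248), with the replicate block (adjusted p = 0.0456) and without LY317615 replicate 1 (-0.30, adjusted p = 0.047), and it was -0.04 (adjusted p = 0.738) after cyclic loess.

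Neither protein kinase D gene passed. PRKD2 (probe set 8037794), the main protein kinase D gene of mouse lymphocytes, read 8.43, 8.51 and 8.32 in LY317615 cells, against 8.22, 8.19 and 8.21 in untreated cells. All LY317615 arrays were higher, and the untreated arrays spanned 0.03. The log2 fold change was 0.21 ± 0.08 (SE, adjusted p = 0.0578 in limma). It was 0.38 (adjusted p = 0.00322) after cyclic loess and 0.26 (adjusted p = 0.0275) without LY317615 replicate 3, and 0.15 (adjusted p = 0.209) with the array medians set equal. PRKD2 lies in the next-to-brightest of the 5 bins, where 36.5% fell and 12.5% rose.

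PRKD3 (probe set 8051547) read 6.54, 6.58 and 6.19 in LY317615 cells, against 6.62, 6.55 and 6.35 in untreated cells. The groups overlapped, and replicate 3 was the lowest of both. The log2 fold change was -0.07 ± 0.12 (SE, adjusted p = 0.67 in limma), with a 95% confidence interval of -0.34 to 0.20.

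**Figure D2:**
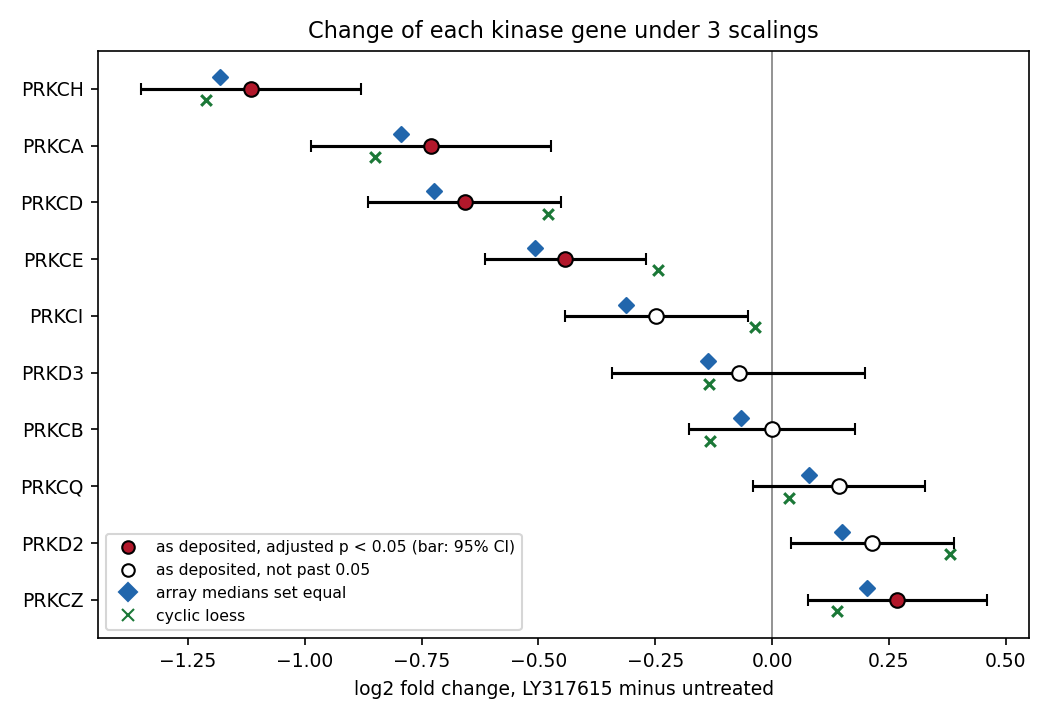
Log2 fold change (LY317615 minus untreated) of each kinase gene with its 95% confidence interval, filled where the adjusted p was under 0.05, beside the same change with array medians set equal (diamonds) and after cyclic loess (crosses). PRKCH, PRKCA, PRKCD and PRKCE are below 0 under all 3 scalings, and PRKCI moves to -0.04 after cyclic loess.

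The genes were ordered by their change, and each neighbouring pair was compared by the within-array difference of their log2 values, which no scaling of whole arrays can alter. The order came from these same arrays, so the negative sign of each difference of changes was fixed beforehand. An exact two-sided permutation test over the 20 splits of the 6 arrays cannot give a p below 0.1. None of the 9 pairs could therefore pass, and no order is read from the test. The difference parted the groups for 3 pairs, at that smallest p of 0.1 (adjusted p = 0.3 over the 9 pairs). The PRKCH change minus that of PRKCA was -0.39, the PRKCD change minus that of PRKCE was -0.21, and the PRKCE change minus that of PRKCI was -0.20. For PRKCA minus PRKCD it was -0.07, and the groups overlapped. From PRKCI upward through PRKD3, PRKCB, PRKCQ, PRKD2 and PRKCZ, the within-array differences of neighbours overlapped between the groups.

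**Figure D3:**
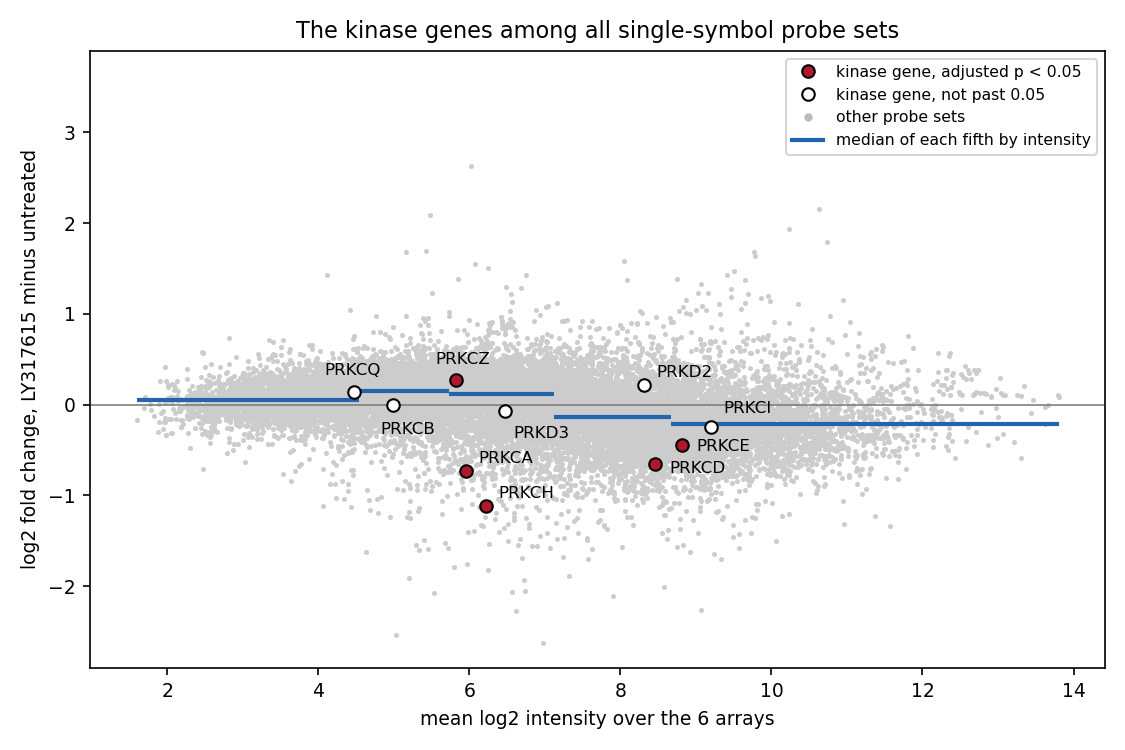
Log2 fold change (LY317615 minus untreated) against mean log2 intensity over the 6 arrays for all 19460 single-symbol probe sets (grey), with the kinase genes marked and blue bars at the median of each of 5 equal bins by intensity. PRKCH and PRKCA lie far below the median of their bin, 0.11, whereas PRKCE and PRKCI lie in the brightest bin, with a median of -0.21.

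Genes around the kinases were taken from lists and are described by counts, beside the 35.5% of all probe sets that passed. Of the near relatives PRKD1, PKN2 and PKN3, 0 of 3 passed in limma, and 0 of 3 had an unadjusted p under 0.05. The largest changes were -0.10 for PKN2 (0.11 after cyclic loess) and 0.07 for PRKD1, a probe set at the 3.44th percentile.

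Genes of the phospholipase C family, whose enzymes make the diacylglycerol that activates these kinases, gave 4 rises and 0 falls among 13 measured. Their median was 0.11. At an unadjusted p under 0.05 in limma, 5 were higher and 1, the phospholipase C-like gene PLCL2 (-0.21), was lower. The 13 include PLCL2 and PLCL1, which are not read here as sources of diacylglycerol. PLCG1 rose by 0.30 ± 0.08 (SE, adjusted p = 0.0158 in limma), PLCD1 by 0.38 ± 0.11, PLCB3 by 0.24 ± 0.07 and PLCB2 by 0.24 ± 0.07. With the array medians set equal 1 gene rose and 1 fell, with the calls of PLCG1 (adjusted p = 0.056), PLCB3 (0.101) and PLCB2 (0.0994) lost. After cyclic loess 3 rose and 1 fell, with the calls of PLCD1 (0.161) and PLCB3 (0.0883) lost. PLCB3 and PLCB2 were lost with the replicate block (adjusted p = 0.0527 for both). Every one of the 4 was lost without untreated replicate 2 (adjusted p = 0.0571 to 0.101) or 3 (0.0533 to 0.0979). Without LY317615 replicate 1 the calls of PLCD1, PLCB3 and PLCB2 were lost (0.0516 to 0.0771), without LY317615 replicate 3 that of PLCB2 (0.0546) and without untreated replicate 1 that of PLCB3 (0.0575). PLCG2, the phospholipase of the B-cell receptor, is named after its values were seen because its probe sets disagreed: the brighter changed by 0.11 (adjusted p = 0.271), and probe set 7997453 rose by 0.46 (adjusted p = 0.00227).

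Genes for the maturation and turnover of protein kinase C gave 4 falls and 1 rise among 11 measured, with a median of -0.09. RICTOR, the scaffold of mTOR complex 2 that supports phosphorylation of several isoforms, read 8.14, 8.15 and 7.96 in LY317615 cells, against 8.63, 8.77 and 8.74 in untreated cells. It fell by 0.63 ± 0.09 on the log2 scale (SE, adjusted p = 0.000761 in limma). PHLPP1, a phosphatase that removes such phosphates, fell by 0.53 ± 0.08 on its brighter probe set (the other changed by -0.16, adjusted p = 0.205), and MLST8, another mTOR subunit, by 0.36 ± 0.08. RBCK1, part of the linear ubiquitin ligase, rose by 0.48 ± 0.09. The counts were 3 falls and 3 rises after cyclic loess. PDPK1, the kinase of the activation loop, is named after its values were seen: of its 4 probe sets the brightest changed by 0.19 (adjusted p = 0.127), 1 changed by 0.02, and 2 with identical values rose by 0.69 (adjusted p = 0.00119).

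Anchors and partners gave 2 falls and 1 rise among 14 measured, with a median of 0.03. SQSTM1, the p62 scaffold that binds atypical isoforms, read 10.89, 10.96 and 10.68 in LY317615 cells, against 11.41, 11.61 and 11.62 in untreated cells. Its change was -0.70 ± 0.10 (SE, adjusted p = 0.000917 in limma), and that of the 14-3-3 gene YWHAG was -0.50 ± 0.08. PARD6B, a PAR6 gene, rose by 0.25 ± 0.07 (adjusted p = 0.0257), a call lost with the array medians set equal (0.0998), without LY317615 replicate 1 (0.074) and without untreated replicate 1, 2 or 3 (0.0614 to 0.086).

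Known substrates gave 5 falls and 3 rises among 15 measured, with a median of -0.08 (0.03 after cyclic loess, with 4 falls and 3 rises; 6 falls and 1 rise with equal array medians). The rises numbered 1 without any 1 of LY317615 replicates 2 and 3 and untreated replicates 1 to 3, and over all probe sets of the table. PLEK, the gene of pleckstrin, a classic protein kinase C substrate of blood cells, read 8.78, 8.66 and 8.60 in LY317615 cells, against 9.97, 9.86 and 9.77 in untreated cells. All LY317615 arrays lay well below, a change of -1.18 ± 0.09 (SE, adjusted p = 4.95e-05 in limma). RASGRP1, a Ras exchange factor that protein kinase C phosphorylates, changed by -0.87 ± 0.09 and the adducin gene ADD2 by -0.59 ± 0.09. GSK3B, whose product protein kinase C can phosphorylate and whose phosphorylated form is used as a readout of enzastaurin, rose by 0.52 ± 0.07.

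Genes from protein kinase C to NF-kB gave 4 falls and 3 rises among 13 measured, with a median of -0.01. CHUK, an IkB kinase gene, changed by -0.55 ± 0.08 (SE, adjusted p = 0.00135 in limma) and RELA, an NF-kB subunit gene, by -0.45 ± 0.09. The subunit gene REL rose by 0.61 ± 0.09 and the inhibitor gene NFKBIA by 0.44 ± 0.08. After cyclic loess 3 fell and 5 rose.

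Protein kinase D substrates gave 6 falls and 0 rises among 12 measured, with a median of -0.20 (6 lower and 1 higher at an unadjusted p under 0.05). After cyclic loess there were 5 falls and 2 rises. There were 3 falls and 0 rises without LY317615 replicate 2 or 3 or untreated replicate 1. Without untreated replicate 2 or 3, and over all probe sets of the table, there were 4 falls and 0 rises. CERT1, the ceramide transfer protein of the Golgi, read 9.27, 9.15 and 9.13 in LY317615 cells, against 9.68, 9.76 and 9.77 in untreated cells. Its change was -0.56 ± 0.08 (SE, adjusted p = 0.000812 in limma). The lipid transfer gene OSBP changed by -0.45 ± 0.07, HDAC5, a class II histone deacetylase gene, by -0.32 ± 0.07 and ARFIP1 by -0.26 ± 0.08. The ARFIP1 call was lost after cyclic loess (-0.04, adjusted p = 0.638) and without LY317615 replicate 2 (0.0606) or 3 (0.0581) or untreated replicate 1 (0.081) or 2 (0.0993).

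**Figure D4:**
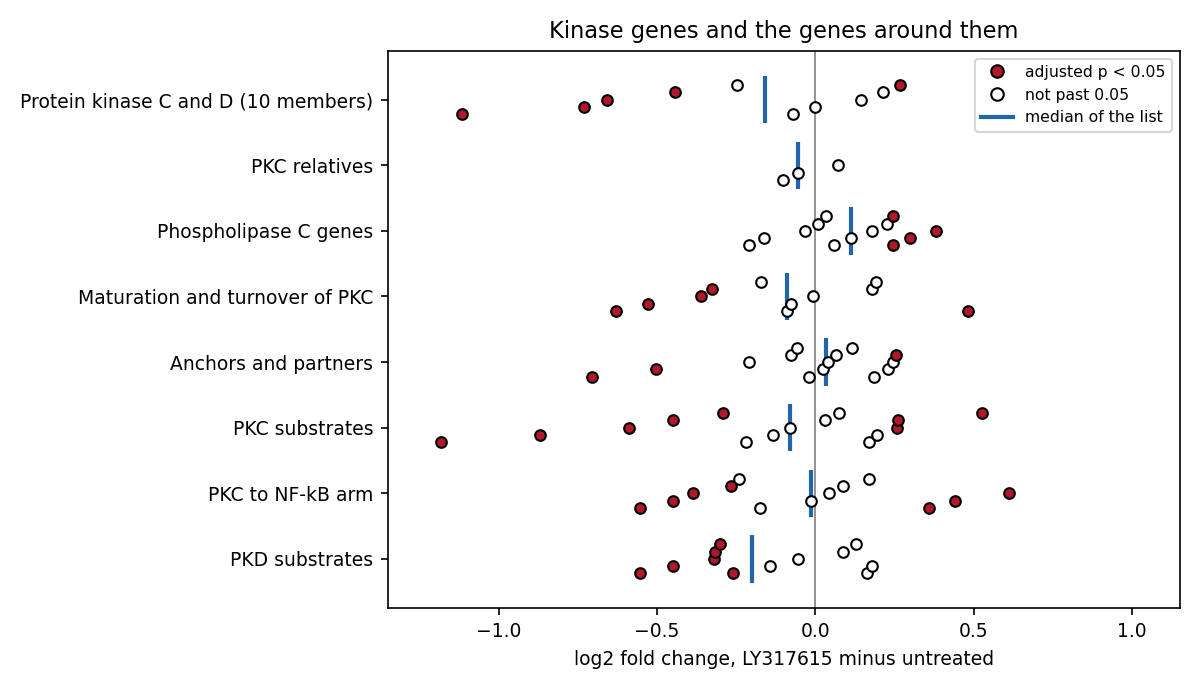
Log2 fold change (LY317615 minus untreated) of the 10 kinase genes and of each gene in the 7 lists around them, filled where the adjusted p was under 0.05, with a blue bar at each list's median. The kinase genes spread from -1.12 to 0.27, the phospholipase C genes lie between -0.21 and 0.38, and PLEK at -1.18 is the lowest point.

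For each kinase gene called, and for PRKCB, the genes with the most similar pattern were found by Pearson's r of log2 values over the 6 arrays. These are descriptions: 6 arrays in 2 groups carry mainly the difference between the groups, and the best of 19460 probe sets is near 1 for most. PRKCH was most like ELP2 and BCL7B (r = 0.998 for both), PRKCA most like UBE2D4 (0.999) and RPS19BP1 (0.998), and PRKCD most like ACTR10 (0.99995) and WDR11 (0.999). PRKCE was most like CCT4 (0.999) and DENND3 (0.998), and PRKCZ most like RTN4RL1 (0.999) and LIMD2 (0.993). PRKCB, whose groups did not differ, was most like EPB42 and RTL4 (r = 0.988 for both), which changed by 0.01 and -0.03.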

How the data were processed

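RNA of RL cells was measured on 3 LY317615 and 3 untreated arrays. The intensity of each probe set was deposited on a linear scale. The submitters' processing notes name GCOS 1.4, RMA and Affymetrix Expression Console, in an order not given in the sources used here. The step back from the log2 scale of RMA is not stated. Log2 was taken with no added constant and no further scaling. Of 33297 probe sets, 19460 had 1 gene symbol in the platform annotation, 1754 several and 12083 none; the first kind was tested (limma 3.58.1, R 4.3.3, eBayes, 2-sided, Benjamini-Hochberg over all 19460, threshold 0.05). The code was tested on simulated data. A list gene with several probe sets is described by its brightest.

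Promoters are RefSeq GRCh38.p14 windows, searched with Python 3.11.15. Figures used matplotlib 3.10.9. The members and lists were chosen with earlier results of these data known. List genes were named by rule: of those that passed, at most 4 with the smallest adjusted p, and otherwise the 2 largest changes. Same-numbered LY317615 and untreated replicates correlated in their deviations from group means at -0.0112, 0.0944 and 0.071. Differently numbered ones correlated at -0.105 to 0.0389. With 3 arrays a group, these values cannot settle whether the numbers pair the arrays. The main fit therefore left pairing out, and the replicate block is given as an alternative. Precision is limited by having 3 arrays a group.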

Additional observations from a re-analysis of the deposited data

How the results depend on the processing

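The falls of PRKCH, PRKCA, PRKCD and PRKCE kept their direction and passed in all 17 alternatives that refitted the values, at -1.21 to -0.91, -0.85 to -0.58, -0.72 to -0.48 and -0.51 to -0.24. At a minimum log2 change of 0.5, 3 kinase genes fell and 0 rose, with 640 higher and 1681 lower of all probe sets. At an adjusted p of 0.01 the counts were 4 and 0, and 1050 and 2709. The count of kinase genes that rose was 0 with the replicate block, over all probe sets of the table and with equal array medians, 0 to 1 leaving out 1 array, and 2 with array quality weights, without the dimmest 30% of probe sets and with 16 added before log2. Over all probe sets 1789 were higher with the array medians set equal (26.9% of calls, against 40.3%), and 1665 to 2661 leaving out 1 array (1665 without untreated replicate 2, 1815 without untreated replicate 3). The sign of PRKCB turned leaving out 1 array (-0.051 to 0.037; above 0 without LY317615 replicate 1 or 2 or untreated replicate 1 or 3). Leaving out 1 array gave -0.15 to 0.051 for PRKD3 and -0.044 to 0.158 for PRKD1, each with its turned sign without LY317615 replicate 3. PRKD3 was 0.015 with array weights, and PKN2 0.114 after cyclic loess. PRKCZ lost its call in 10 of the 17, and PRKCI and PRKD2 each passed in 6. PRKCB, PRKD3, PKN2 and PRKD1 did not pass in any of these settings; the causes were not tested. PRKCB and PRKCQ have no value without the dimmest 30%, which removes them. The replicate block gave 2869 higher and 3997 lower, and ended the PRKCZ call. Alternatives for the list genes were added after seeing the data. Dim probe sets have no detection call, so a change in RNA of PRKCB or PRKCQ, small or large, could have gone unseen.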
